A study of Mus musculus with 12 samples.

Results

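Gene expression in the apical turn of the mouse cochlea was compared with that in the basal turn on 8 of the 12 arrays of the series, chosen by the tissue given in their labels. There were 4 arrays of the apical turn and 4 of the basal turn, and the 4 arrays of the middle turn entered the test only through the estimate of the spread. All samples came from male C57BL/6 mice at the age of 6 weeks, with no treatment and no genetic change named, and each array received cRNA made from 25 ng of total RNA. Each sample was the soft tissue of a whole turn, so that sensory epithelium, nerve cells and lateral wall were measured together. The study's methods name 4 mice, whose cochleae were cut into apical, middle and basal turns, so arrays of different turns would share mice. The labels do not say which arrays of different turns came from the same mouse. The test therefore left the pairing out and treated the arrays as independent, and p-values measure the spread between these arrays.

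The cochlea is a coiled tube in which the base receives sounds of high frequency and the apex sounds of low frequency. Hair cells in the organ of Corti turn vibration into electrical signals, supporting cells hold them in place and secrete the tectorial membrane above them, and spiral ganglion neurons with their myelinating Schwann cells carry the signal to the brain. In the lateral wall, the marginal and intermediate cells of the stria vascularis make the potassium-rich endolymph, and fibrocytes of the spiral ligament return potassium to them. The intermediate cells belong to the melanocyte lineage and carry pigment genes.

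Each array reported brightness at probes in exons, scaled to the 75th percentile of the array, and the log2 values of the probes of a gene were averaged. Signals below are given as scaled fluorescence on the linear scale, and log2 differences are apical minus basal, so that a positive value means more signal in the apical turn. A gene was called when limma's adjusted p was under 0.05 and the means differed 2-fold or more. Of 19505 genes tested, 648 (3.32%) were called higher in the apical turn and 224 (1.15%) higher in the basal turn. The 4 apical and 4 basal arrays did not overlap for 811 of the 872 called genes and for 38.3% of all genes tested. Calls at the apex made up 74.3% of all calls. Scaling to the median signal of the array in place of the 75th percentile gave 61.3%, and scaling to the spike-in control probes gave 21.8%. The spike-in probes themselves read 11.7 to 11.92 on the apical and 11.33 to 11.42 on the basal arrays on the scaled log2 scale. The median difference over all genes was -0.04, and it was -0.15 with median scaling and -0.45 with spike-in scaling, so the list medians below are read against that of all genes. Of the 19505 genes, 10807 had a negative difference, and counts of list members below 0 are to be read beside that. All 4 arrays of a turn lay on the same slide, so that slide and turn cannot be told apart. The share of spots well above background ran from 80.1% to 81.2% on the apical and from 78.3% to 79.1% on the basal arrays. The mean log2 signal of later minus earlier probes within a gene, in order of start position, was also compared. It ran from 0.87 to 0.95 on the apical and from 0.95 to 1.01 on the basal arrays. Its part in the calls was not tested.

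Some arrays stood apart from the others of their turn for whole groups of genes. Basal array 3 had the highest signal of the 4 basal arrays for 463 of the 648 genes called higher in the apical turn (71.5%, against 20% of all genes), and basal array 2 had the lowest for 492 (75.9%). Apical array 4 had the highest signal of the apical arrays for 125 of the 224 genes called higher in the basal turn (55.8%). For basal array 2 as the lowest and apical array 4 as the highest, the share over all genes was not worked out. Equal shares cannot be assumed, since over all genes basal array 2 was the highest basal array for 17.6% and basal array 4 for 40.4%. Apical array 4 was raised for bone, bone marrow and interferon-induced genes. Apical array 3 alone held signal for Gfap (27.6, 23.3, 416 and 22 on the apical arrays) and Olig1 (7.06, 5.36, 266 and 5.5), genes of astrocytes and oligodendrocytes. Calls made without basal array 3 rose to 765 in the apical and 260 in the basal direction, and calls made without basal array 2 were 517 and 218. Calls made without apical array 4 were 674 and 266. Leaving out both apical array 4 and basal array 3 gave 807 and 304 calls.

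**Figure D1:**
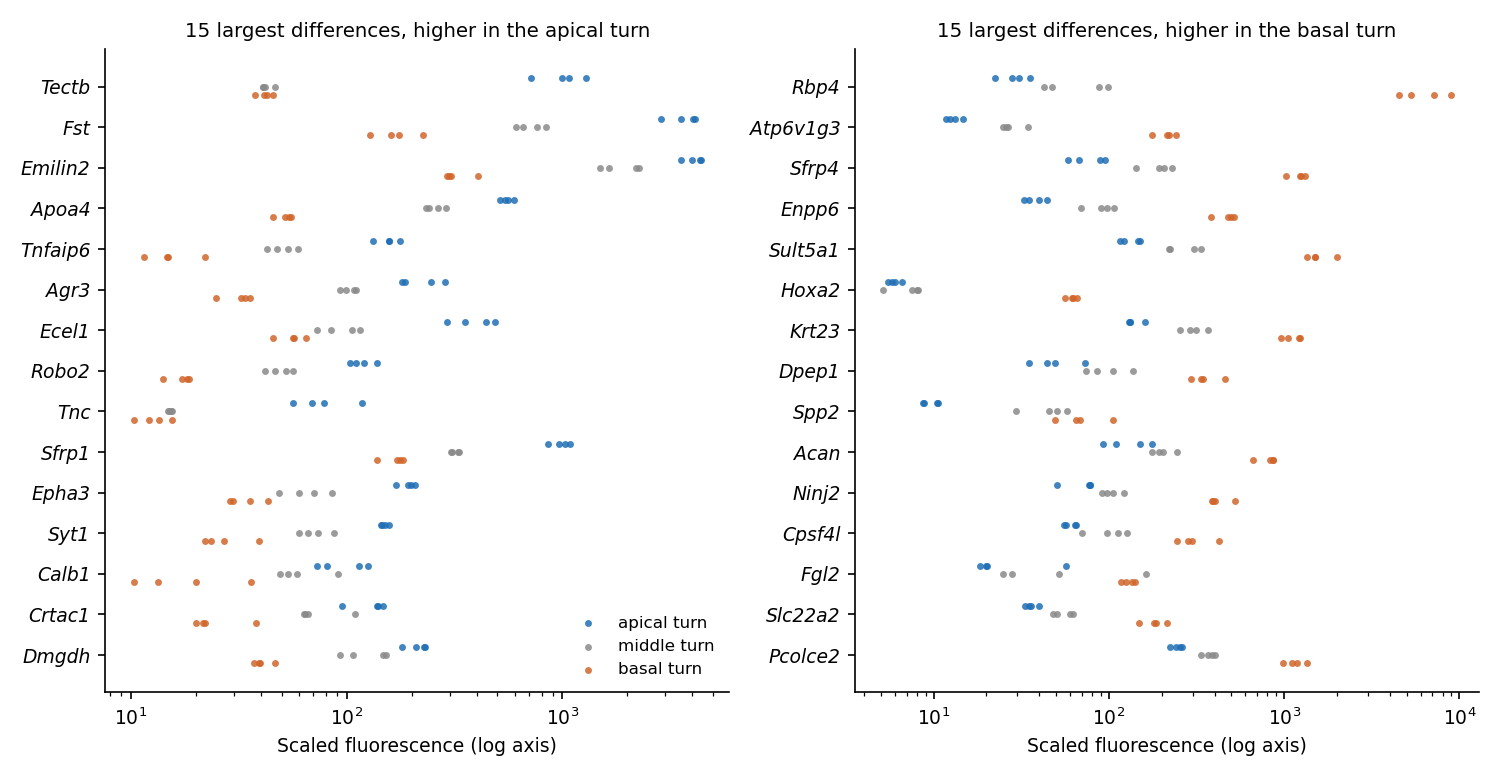
Scaled fluorescence (log axis) on each of the 12 arrays for 15 annotated genes in each direction, with deafness and channel genes left out. They had the largest called differences among genes that passed a filter. The filter asked for no overlap between apical and basal arrays and for 2 or more probes. It also asked for signal well above background on all 4 arrays of the brighter turn. Points are arrays of the apical (blue), middle (grey) and basal (orange) turn. The lack of overlap in all 30 genes was thus a condition of their choice. The Tectb points of the middle turn (41.1 to 46.8) lie with those of the basal turn.

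The genes at each end were named by a rule that left out deafness and channel genes. It took called, annotated genes with 2 or more probes and no overlap between the 4 apical and 4 basal arrays. They also had to be well above background on all 4 arrays of the brighter turn. At the apical end, the 15 genes with the largest difference under this rule were Tectb, Fst, Emilin2, Apoa4, Tnfaip6, Agr3, Ecel1, Robo2, Tnc, Sfrp1, Epha3, Syt1, Calb1, Crtac1 and Dmgdh, from 23.8-fold to 5.24-fold. Apoa4, an apolipoprotein of lipid particles, read 539, 559, 514 and 598 on the apical arrays and 55.5, 45.4, 52.1 and 54.1 on the basal arrays (log2 difference 3.42, SE 0.087, adjusted p = 5.9e-09). Tnfaip6, a secreted protein that binds hyaluronan, read 157, 157, 133 and 177 on the apical arrays and 14.8, 11.5, 14.9 and 22 on the basal arrays (log2 difference 3.34, SE 0.18, adjusted p = 4.4e-07), and it was well above background on only 1 of the 4 basal arrays, so that the size of its difference is uncertain. The lowest apical array was several times above the highest basal array for both genes, and the middle arrays lay between (233 to 290 for Apoa4 and 42.8 to 59.6 for Tnfaip6). Ecel1, a membrane protein related to the neutral endopeptidases, read 443, 487, 352 and 293 on the apical arrays and 45.7, 64.7, 56.3 and 57 on the basal arrays (log2 difference 2.8, SE 0.19, adjusted p = 1.7e-06). All 15 of its probes were higher in the apical turn, and its middle arrays (72.9 to 115) lay nearer to the base than to the apex.

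At the basal end, the 15 genes named by the same rule were Rbp4, Atp6v1g3, Sfrp4, Enpp6, Sult5a1, Hoxa2, Krt23, Dpep1, Spp2, Acan, Ninj2, Cpsf4l, Fgl2, Slc22a2 and Pcolce2, from 217-fold to 4.69-fold. Besides secreted proteins they held enzymes, transporters and a keratin. Krt23, an acidic keratin of epithelia, read 130, 131, 132 and 161 on the apical arrays and 1050, 1210, 960 and 1230 on the basal arrays (log2 difference -3, SE 0.12, adjusted p = 7.2e-08). Dpep1, a membrane dipeptidase, read 44.1, 34.8, 49.5 and 72.9 on the apical arrays and 333, 295, 343 and 462 on the basal arrays (log2 difference -2.86, SE 0.24, adjusted p = 9.2e-06). Pcolce2, a secreted protein that enhances the processing of procollagen, read 240, 224, 262 and 255 on the apical arrays and 1190, 982, 1100 and 1350 on the basal arrays (log2 difference -2.23, SE 0.098, adjusted p = 1.2e-07). The rule allowed no overlap between the turns in these 3 genes. For Krt23 and Dpep1 apical array 4 was the highest of the apical arrays. Fgl2, a fibrinogen-like protein, read 20, 20.2, 18.4 and 56.7 on the apical arrays and 125, 135, 141 and 117 on the basal arrays (log2 difference -2.34, SE 0.54, adjusted p = 0.0053). Its 2 probes were both higher at the base, apical array 4 stood far above the other apical arrays, and the middle arrays ran from 24.9 to 163.

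**Figure D2:**
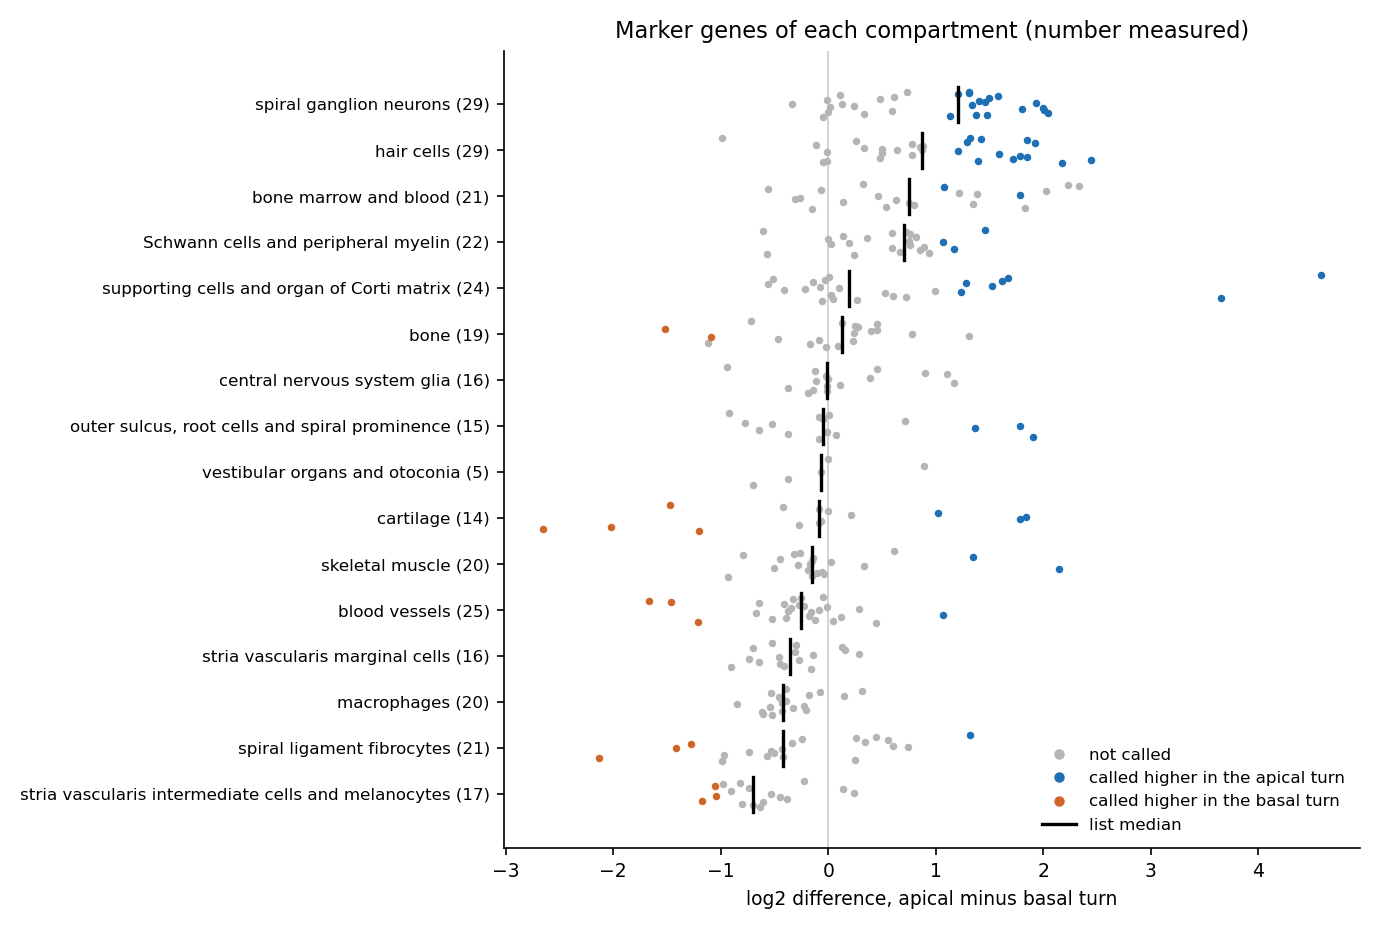
log2 difference, apical minus basal turn, of each marker gene of 16 cell type and tissue lists, ordered by list median (black bars). Blue and orange points passed the test in the apical and basal direction, and grey points did not. The hair cell (0.87) and neuron (1.21) lists have the most blue points, and the melanocyte list has the lowest median (-0.7).

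Hair cell markers were called in the apical direction, with a single member close to the limit in the other. Of 29 measured hair cell genes, 13 (44.8%) were called higher in the apical turn and none in the basal turn, with a median of 0.87. The other 16 did not pass, and 5 of them were below 0. Basal array 3 was the highest basal array for 9 of the 13 called genes, against 16 of 16 in the neuronal list. Calb1, Calb2 and Pvalb were among the 13, and the part of nerve tissue in this count was not tested. In RNA from a whole turn, fewer cells of a type and less RNA per cell cannot be told apart. Calb1, the calcium buffer calbindin, read 126, 72.9, 114 and 81.4 on the apical arrays and 20, 10.3, 35.9 and 13.4 on the basal arrays (log2 difference 2.44, SE 0.35, adjusted p = 0.00032). Ocm encodes oncomodulin, the calcium buffer of outer hair cells, and read 14400, 16000, 13400 and 12000 on the apical arrays and 3660, 2490, 4190 and 4760 on the basal arrays (log2 difference 1.92, SE 0.17, adjusted p = 1.3e-05). Smpx, a small muscle and hair cell protein, read 816, 770, 664 and 644 on the apical arrays and 190, 140, 265 and 227 on the basal arrays (log2 difference 1.85, SE 0.17, adjusted p = 1.4e-05). The groups did not overlap in any of the 3, which for Calb1 was a condition of its choice. Basal array 3 was the highest basal array for Calb1 and Smpx but not for Ocm.

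Acbd7, an acyl-CoA binding protein, differed by 2.17 ± 0.16 (SE, adjusted p = 3.6e-06), and its middle arrays (2070 to 2680) had as much signal as the apical arrays (2150 to 2500). The acetylcholine receptor of outer hair cells, through which the brain damps them, was higher in the apical turn in both of its subunits. Chrna9 read 241, 280, 249 and 219 on the apical arrays and 77.3, 61.1, 81.2 and 68.9 on the basal arrays (log2 difference 1.78, SE 0.11, adjusted p = 1.1e-06), and Chrna10 read 166, 187, 166 and 150 on the apical arrays and 43.9, 43.6, 46.9 and 51.3 on the basal arrays (log2 difference 1.85, SE 0.12, adjusted p = 1.2e-06). Neither subunit overlapped between the turns, and for both the middle arrays lay between (139 to 176 and 90.7 to 137). Chrna9 was under 2-fold in 2 other ways of summarising its probes, with 0.64 for the log2 of the mean linear signal and 0.98 for the median over probes. Myo7a, the myosin that defines hair cells, read 143, 162, 156 and 137 on the apical arrays and 86.3, 79.6, 90.4 and 91.2 on the basal arrays. That is a log2 difference of 0.78 ± 0.067 (SE), under the 2-fold limit, with no overlap between turns and adjusted p = 9.7e-06. Whrn, the scaffold protein whirlin of the hair bundle, named after its value was seen, had the lowest difference of the list. It read 76.4, 77, 90.6 and 85.3 on the apical arrays and 160, 150, 158 and 185 on the basal arrays, a log2 difference of -0.99 ± 0.1 (SE, adjusted p = 3.8e-05) with no overlap between turns. It passed the 2-fold limit in the basal direction, among other settings, with quantile normalisation (-1.1), median scaling (-1.1) and spike-in scaling (-1.4), and without basal array 2 (-1.03). Without basal array 3, 13 of the 29 genes were called in the apical direction and 1 in the basal direction, and without basal array 2 the counts were 12 and 1. With spike-in scaling they were 9 and 1, and with normexp background correction 6 and 0.

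Of 24 genes of supporting cells and of the membranes they secrete, 7 (29.2%) were higher in the apical turn and none in the basal turn, with a median of 0.19. The 7 include Tectb and Emilin2, which the study had already reported from these arrays as higher in the apex, so their calls were known when the list was made. With spike-in scaling 5 were called higher in the apical turn, and with normexp 4. Tectb, a protein of the tectorial membrane, read 718 to 1280 on the apical and 37.6 to 45.8 on the basal arrays. Its middle arrays (41.1 to 46.8) lay at the level of the basal ones, whereas those of Emilin2, a matrix protein of the basilar membrane, read 1490 to 2260 against 3560 to 4380 in the apex and 292 to 406 in the base. Otog, a further glycoprotein of the tectorial membrane, read 181, 181, 191 and 143 on the apical arrays and 78.7, 59.6, 66.9 and 81.2 on the basal arrays (log2 difference 1.28, SE 0.12, adjusted p = 1.9e-05), with 49 of 51 probes higher in the apical turn. Tecta was dim, reading 19 to 20.2 in the apical turn and 17.9 to 20.8 in the basal turn, with overlap and a log2 difference of 0.01 ± 0.052 (SE). At signals this low the lack of a difference says little. So of the tectorial membrane genes named here, 2 passed the test and 1 did not, which is no count over all such genes of the list. The supporting cell transcription factor Sox2 read 449, 479, 380 and 346 on the apical arrays and 124, 90.2, 181 and 137 on the basal arrays (log2 difference 1.67, SE 0.21, adjusted p = 0.00015), on a single probe. Prox1, a transcription factor of pillar and Deiters cells, read 232, 189, 237 and 194 on the apical arrays and 67.7, 37.6, 154 and 57.5 on the basal arrays (log2 difference 1.62, SE 0.35, adjusted p = 0.0035). For Sox2 and Prox1 the highest basal signal was on array 3, and the middle arrays (280 to 453 and 167 to 285) reached the apical range.

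The spiral ganglion neurons had the largest median of the marker lists, and 2 of the basal arrays moved it in opposite directions. Of 29 neuronal genes, 16 (55.2%) were called higher in the apical turn, none in the basal turn, and the median was 1.21. Nefl, the light neurofilament chain, read 14900, 11300, 14200 and 13000 on the apical arrays and 4060, 1830, 9100 and 3100 on the basal arrays (log2 difference 1.8, SE 0.39, adjusted p = 0.0035). Nefh, the heavy chain, read 3780, 2870, 3560 and 3150 on the apical arrays and 899, 414, 2080 and 603 on the basal arrays (log2 difference 2.01, SE 0.4, adjusted p = 0.0023). Slc17a6, a transporter that fills synaptic vesicles with glutamate, read 640, 503, 539 and 555 on the apical arrays and 150, 84.2, 332 and 108 on the basal arrays (log2 difference 1.93, SE 0.35, adjusted p = 0.0012). In these 3 genes basal array 3 stood well above the other basal arrays and basal array 2 was the lowest, while the middle arrays (9890 to 17500 for Nefl) matched the apical ones.

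Basal array 3 was the highest basal array for all 16 of the called neuronal genes. The median deviation of the neuronal list from its genes' own means was 0.61, 0.2, 0.56 and 0.26 on the apical arrays and -0.8, -1.33, 0.1 and -0.93 on the basal arrays. With basal array 3 left out the median was 1.41 and 17 of the genes were called, and with basal array 2 left out it was 0.99 with 14 called. With spike-in scaling 9 neuronal genes were called, and with normexp 12. Tubb3, the neuronal tubulin, read 1170, 837, 1120 and 990 on the apical arrays and 423, 215, 891 and 358 on the basal arrays (log2 difference 1.31, SE 0.36, adjusted p = 0.013), so that its basal array 3 reached into the apical range, and without basal array 2 its difference of 0.99 was just under the limit. How much nerve tissue each dissected piece held was not measured, and its part in these differences was not tested.

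Of 22 myelin and Schwann cell genes, 3 (13.6%) were called higher in the apical turn and none in the basal turn, with a median of 0.7 and 19 of 22 genes above 0. Ugt8a, an enzyme that makes the galactolipids of myelin, read 1040, 808, 900 and 856 on the apical arrays and 346, 190, 661 and 262 on the basal arrays (log2 difference 1.46, SE 0.32, adjusted p = 0.0038). Egr2, the transcription factor that drives myelination, read 341, 317, 399 and 299 on the apical arrays and 156 ± 50.9 (mean ± SD, n = 4) on the basal arrays (log2 difference 1.17, SE 0.2, adjusted p = 0.00099). L1cam, an adhesion molecule of axons and Schwann cells, read 147, 137, 152 and 122 on the apical arrays and 68.5, 51.3, 89.5 and 61.5 on the basal arrays (log2 difference 1.07, SE 0.17, adjusted p = 0.00059), and without basal array 2 its difference was 0.95. In all 3 basal array 3 was again the highest of its turn, and without that array 7 of the 22 genes were called. With spike-in scaling 1 gene was called in each direction, and with normexp 1 in the apical direction. Mbp, myelin basic protein, differed by 0.36 ± 0.069 (SE).

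**Figure D3:**
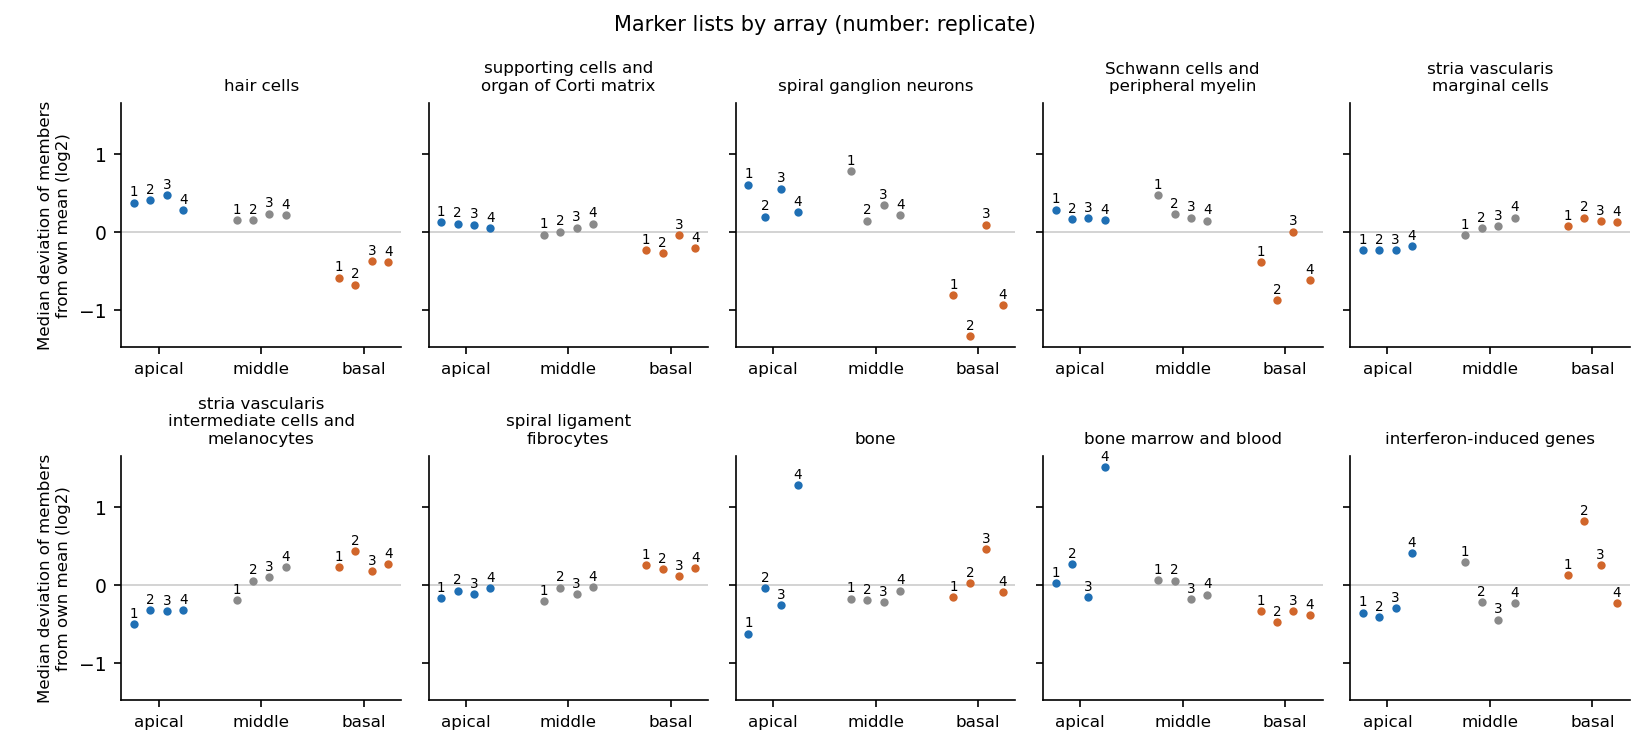
Median, over the members of a list, of the deviation of each gene's log2 signal from its mean over the 12 arrays, for 10 lists. Each point is an array, numbered by replicate within the apical (blue), middle (grey) and basal (orange) turn. Basal array 3 lies above the other basal arrays for neurons (0.1) and myelin (0.01), and apical array 4 lies above the other apical arrays for bone (1.28) and bone marrow (1.51).

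In the stria vascularis, genes of the pigmented intermediate cells lay mostly below 0. Of 17 melanocyte and intermediate cell genes, 15 had a negative log2 difference, 3 (17.6%) were called higher in the basal turn, none in the apical turn, and the median was -0.7. Kit, the receptor tyrosine kinase on which melanocytes depend, read 162, 184, 233 and 189 on the apical arrays and 463, 398, 395 and 468 on the basal arrays (log2 difference -1.17, SE 0.11, adjusted p = 2.5e-05). Slc45a2, a membrane transporter of the melanosome, read 659, 861, 793 and 911 on the apical arrays and 1420, 1970, 1440 and 1880 on the basal arrays (log2 difference -1.05, SE 0.15, adjusted p = 0.00031). Mlana, a melanosome protein, read 1960, 2470, 2450 and 2500 on the apical arrays and 4110, 5350, 4390 and 5530 on the basal arrays (log2 difference -1.04, SE 0.15, adjusted p = 0.00033). None of the 3 overlapped between turns, and the mean of the middle arrays lay between the ends in each (207 to 264 for Kit). With spike-in scaling 11 of the 17 genes were called higher in the basal turn, and with median scaling 5. Slc45a2 and Mlana lay close to the 2-fold limit, and with apical array 1, basal array 2 or basal array 4 left out Slc45a2 gave -0.96, -0.97 and -0.99 and Mlana -0.96, -0.99 and -0.97.

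The pigment enzymes of the list were not called, and Tyrp1 among them had a log2 difference of only -0.23. Tyr, tyrosinase, the first enzyme of melanin synthesis, read 567, 717, 652 and 757 on the apical arrays and 1080, 1360, 1110 and 1200 on the basal arrays (log2 difference -0.82, SE 0.12, adjusted p = 0.00042). Dct, dopachrome tautomerase, read 16100, 17000, 20400 and 20700 on the apical arrays and 22300, 32300, 25700 and 35800 on the basal arrays (log2 difference -0.63, SE 0.19, adjusted p = 0.022). Trpm1, a channel of melanocytes first known as melastatin, read 50.1 to 65.5 on the apical and 95 to 135 on the basal arrays (log2 difference -0.98, SE 0.12, adjusted p = 0.00013). Tyr, Dct and Trpm1 were under the 2-fold limit and none of these overlapped between turns. Trpm1 gave -1.06 without apical array 1 and -1.05 without basal array 3. The middle arrays of Dct (21800 to 38500) and Trpm1 (88.1 to 111) lay with the basal arrays, whereas those of Tyr (722 to 1030) lay between.

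Tyr, Dct and Trpm1 are known targets of MITF, the transcription factor of the melanocyte lineage, which binds the sequence TCATGTG known as the M-box. In the 250 bases upstream of the transcript start in RefSeq (GRCm38.p6), this sequence, searched on both strands, was found for 5 of the 12 listed genes that had a promoter sequence (41.7%) and for 1006 of 27025 genes in all (3.72%). The members with a match were Dct, Slc24a5, Trpm1, Tyr and Tyrp1. The list was made of pigment cell genes, known MITF targets among them, so the 2 shares are no test and say nothing about the turns. A match is a description of the letters and not of binding. The upstream bases of 3 of them are shown because they place the same 7 letters at different distances from the start in genes with a negative difference, with the match in capitals and each sequence written along the strand of its gene.
Tyr, chr7:87493513-87493762, minus strand: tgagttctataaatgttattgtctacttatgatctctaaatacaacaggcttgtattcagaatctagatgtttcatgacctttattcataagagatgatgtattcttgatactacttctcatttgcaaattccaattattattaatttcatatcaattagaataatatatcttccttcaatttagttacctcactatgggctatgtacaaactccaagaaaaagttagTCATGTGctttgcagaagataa
Trpm1, chr7:64153585-64153834, plus strand: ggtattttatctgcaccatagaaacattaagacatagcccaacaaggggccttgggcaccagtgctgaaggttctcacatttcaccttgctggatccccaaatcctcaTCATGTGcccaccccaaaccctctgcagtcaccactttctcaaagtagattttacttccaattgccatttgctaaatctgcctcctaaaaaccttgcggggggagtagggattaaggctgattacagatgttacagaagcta
Dct, chr14:118052247-118052496, minus strand: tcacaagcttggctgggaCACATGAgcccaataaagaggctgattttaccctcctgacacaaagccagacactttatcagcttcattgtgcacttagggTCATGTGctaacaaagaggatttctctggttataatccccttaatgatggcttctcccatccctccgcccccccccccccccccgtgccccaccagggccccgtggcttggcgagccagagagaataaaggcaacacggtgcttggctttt
The match began 22 bases before the start in Tyr and 142 bases before it in Trpm1. Dct held 2 matches, the first of them 232 bases before the start and on the opposite strand.

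None of 16 marginal cell genes was called in either direction, 13 were negative, and the median was -0.36. With spike-in scaling 4 of them were called higher in the basal turn, and with median scaling 1. Lrp2, the endocytic receptor megalin, overlapped between turns (2120 to 2720 and 1880 to 2410, log2 difference 0.13 ± 0.11, SE). Esrrb, a nuclear receptor of marginal cells, differed by -0.31 ± 0.09 (SE).

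Fibrocytes of the spiral ligament showed called genes both ways. Of 21 genes, 3 (14.3%) were higher in the basal turn and 1 (4.76%) in the apical turn, and the median was -0.42. Car2, carbonic anhydrase of the ligament and stria, read 6340, 6830, 6170 and 7660 on the apical arrays and 30400, 33300, 24800 and 29500 on the basal arrays (log2 difference -2.13, SE 0.1, adjusted p = 2e-07). Dcn, the small matrix proteoglycan decorin, read 11700, 11300, 9620 and 10100 on the apical arrays and 29600, 32300, 21000 and 32600 on the basal arrays (log2 difference -1.42, SE 0.13, adjusted p = 1.6e-05). Otos encodes otospiralin, a protein of cochlear fibrocytes, and read 161000, 141000, 149000 and 154000 on the apical arrays and 384000, 344000, 346000 and 397000 on the basal arrays (log2 difference -1.28, SE 0.071, adjusted p = 5.7e-07). All 3 were without overlap, and their middle arrays lay about midway on the log2 scale, at 11500 to 13900 for Car2.

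Otos is among the brightest genes, and quantile normalisation brought its difference to -0.91. Vim, the intermediate filament vimentin, went the other way, with 8110, 8950, 6950 and 7710 on the apical arrays and 3040, 2780, 3550 and 3390 on the basal arrays (log2 difference 1.32, SE 0.095, adjusted p = 3.1e-06). Coch, cochlin, the main fibrocyte matrix protein, read 91700, 90600, 92500 and 99500 on the apical arrays and 139000, 133000, 139000 and 144000 on the basal arrays, a log2 difference of -0.57 ± 0.054 (SE) that is under 2-fold. With apical array 4 left out, 5 fibrocyte genes were called higher in the basal turn.

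Genes of the outer sulcus and root cells, which border the ligament, had 3 of 15 members (20%) called higher in the apical turn, none in the basal turn, and a median of -0.05. With spike-in scaling 2 were called in the apical and 3 in the basal direction. Aqp4, a water channel of these cells, read 455, 512, 526 and 396 on the apical arrays and 131, 126, 115 and 130 on the basal arrays (log2 difference 1.9, SE 0.096, adjusted p = 2.9e-07). Epyc, a small proteoglycan, read 40400, 42500, 33700 and 40200 on the apical arrays and 11600, 11600, 10800 and 11500 on the basal arrays (log2 difference 1.78, SE 0.071, adjusted p = 6.9e-08). Dpp10, an auxiliary subunit of potassium channels, read 148, 158, 124 and 121 on the apical arrays and 50.6, 59.9, 51.6 and 52.3 on the basal arrays (log2 difference 1.36, SE 0.09, adjusted p = 1.7e-06). In none of the 3 was basal array 3 the highest basal array, and the arrays of the ends were far apart. Slc26a4, the anion exchanger pendrin and the defining gene of these cells, overlapped between turns (2170 to 2640 and 2350 to 2740, log2 difference -0.09 ± 0.082, SE).

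Of 25 vessel genes, 3 (12%) were higher in the basal turn and 1 (4%) was higher in the apical turn, and the median was -0.25. The smooth muscle genes Tagln, with 164, 201, 207 and 162 on the apical arrays and 584, 461, 599 and 705 on the basal arrays (log2 difference -1.67, SE 0.13, adjusted p = 6.5e-06), and Acta2, at -1.21 ± 0.073 (SE, adjusted p = 9.5e-07), were higher at the base. For Acta2 the median over probes gave -0.73 and the mean linear signal -0.54. Slco1a4, an organic anion transporter of barrier endothelium, read 582, 581, 702 and 742 on the apical arrays and 1670, 1860, 1680 and 1930 on the basal arrays (log2 difference -1.46, SE 0.11, adjusted p = 3.1e-06). Emcn, an endothelial sialomucin, was higher at the apex, with 4880, 4610, 3240 and 4020 on the apical arrays and 1960, 1720, 2050 and 2200 on the basal arrays (log2 difference 1.07, SE 0.12, adjusted p = 8.1e-05), and 0.99 without apical array 1. The general endothelial genes Pecam1 and Cdh5 differed by -0.27 ± 0.07 and -0.12 ± 0.059 (SE).

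None of 20 macrophage genes was called in either direction, with 18 negative and a median of -0.42. Ctss, a lysosomal protease, read 1240, 1470, 1310 and 1770 on the apical arrays and 2620, 3220, 2180 and 2430 on the basal arrays (log2 difference -0.85, SE 0.13, adjusted p = 0.00056). C1qb, a complement subunit made by macrophages, read 635, 694, 717 and 846 on the apical arrays and 1050, 1250, 1030 and 1110 on the basal arrays (log2 difference -0.62, SE 0.092, adjusted p = 0.00037). Neither overlapped, and both differed by less than 2-fold. Csf1r, the receptor that macrophages need, differed by -0.23 ± 0.078 (SE) with overlap, and Cx3cr1, a chemokine receptor of tissue macrophages, by -0.43 ± 0.15 (SE).

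Markers of tissues that border the cochlea were examined because a dissected turn can hold some of them. Of 19 bone genes, 2 were called higher in the basal turn, none in the apical turn, and the median was 0.13. Omd, osteomodulin, read 631, 712, 835 and 1160 on the apical arrays and 2210, 2140, 2680 and 2340 on the basal arrays (log2 difference -1.52, SE 0.16, adjusted p = 3.7e-05). Dmp1, a matrix protein of osteocytes, read 669, 668, 736 and 1120 on the apical arrays and 1640, 1660, 1750 and 1610 on the basal arrays (log2 difference -1.09, SE 0.15, adjusted p = 0.00019). Ibsp, bone sialoprotein, read 57.3, 312, 90.1 and 1840 on the apical arrays and 68.4, 88.7, 224 and 57.7 on the basal arrays. Bglap, osteocalcin, read 44.9, 122, 52.4 and 348 on the apical arrays and 91, 119, 165 and 89.8 on the basal arrays. Both were brightest on apical array 4, overlapped between turns and did not pass. Without apical array 4 the median of the bone list was -0.24, so its sign rested on that array.

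The bone marrow and blood list, whose neutrophil genes define it, had 2 of 21 genes called higher in the apical turn, none in the basal turn, and a median of 0.75. Ltf, lactoferrin, read 79.3, 192, 147 and 378 on the apical arrays and 53.4, 40.5, 62 and 44.9 on the basal arrays (log2 difference 1.78, SE 0.5, adjusted p = 0.014). Prtn3, a neutrophil protease, read 149, 160, 125 and 531 on the apical arrays and 95.1 ± 10.6 (mean ± SD, n = 4) on the basal arrays (log2 difference 1.08, SE 0.37, adjusted p = 0.04), and without apical array 4 its difference was 0.6. With any basal array left out its adjusted p ran from 0.059 to 0.094. The median of the list was 1.51 above its genes' means on apical array 4 and from -0.15 to 0.27 on the other apical arrays. Without apical array 4 the list median was 0.38 with 1 gene called, and without apical array 3 there were 9 called. Leaving out any single basal array gave 1 call. S100a8 ran from 202 to 11800 within the apical turn (log2 difference 2.33 ± 1.2, SE, and 3.43 with adjusted p = 0.018 without apical array 3), and Alas2, of red cell precursors, from 137 to 337.

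Of 20 skeletal muscle genes, 2 were called higher in the apical turn, and none in the basal turn. They were Fbxo40 (log2 difference 2.15, SE 0.38, adjusted p = 0.0011), a ubiquitin ligase subunit well above background on 3 of 4 basal arrays, and Pygm (log2 difference 1.35, SE 0.11, adjusted p = 9.2e-06), the glycogen phosphorylase of muscle. The defining genes Ckm and Acta1 differed by -0.19 ± 0.1 and -0.93 ± 0.14 (SE), and Acta1 by -1.01 without basal array 3. None of 16 glial genes of the central nervous system and none of 5 vestibular genes was called in either direction, with medians of -0.01 and -0.07. Mog, a myelin gene of the central nervous system, read 110 to 169 in the apical and 121 to 135 in the basal turn, and Oc90, an otoconial protein, read 29.3 to 31.3 and 26.2 to 41.1.

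Cartilage and proteoglycan genes were called at both ends. Of 14 cartilage genes, 4 (28.6%) were higher in the basal turn and 3 (21.4%) in the apical turn, with a median of -0.09. Acan, the large cartilage proteoglycan aggrecan, read 110, 91.9, 177 and 150 on the apical arrays and 863, 667, 833 and 860 on the basal arrays (log2 difference -2.65, SE 0.19, adjusted p = 2.9e-06), with all 16 probes higher in the basal turn. Chad, a leucine-rich matrix protein, read 134, 132, 137 and 162 on the apical arrays and 540, 446, 654 and 668 on the basal arrays (log2 difference -2.02, SE 0.15, adjusted p = 4.4e-06). Ucma, a vitamin K-dependent cartilage matrix protein, read 10600, 11100, 13600 and 13500 on the apical arrays and 32700, 34200, 30900 and 36600 on the basal arrays (log2 difference -1.47, SE 0.1, adjusted p = 2.6e-06). In these 3 genes every basal array was above every apical array, which for Acan was a condition of its choice. The remaining call at the base was 3110079O15Rik, at -1.2 ± 0.18 (SE). Hapln1, the protein that links aggrecan to hyaluronan, went the other way, with 296, 219, 289 and 275 on the apical arrays and 67.8, 44.8, 160 and 63.6 on the basal arrays (log2 difference 1.84, SE 0.32, adjusted p = 0.00095). Matn1, matrilin, lay near the limit at 1.02 ± 0.14 (SE), with 0.93 without apical array 1, 0.94 without apical array 2, 0.95 without basal array 1 and 0.99 without basal array 2. The remaining cartilage call at the apex was Epyc, which is also counted in the outer sulcus list.

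In the wider list of small leucine-rich and large proteoglycans, 5 of 38 (13.2%) were higher in the apical turn and 4 (10.5%) in the basal turn. Those of the apex were Hapln1, Fmod, Epyc, Hapln4 and, named after its value was seen to complete the count, Prelp, and those of the base Acan, Chad, Omd and Dcn. Fmod, fibromodulin, read 419, 414, 456 and 520 on the apical arrays and 124, 117, 196 and 97.9 on the basal arrays (log2 difference 1.8, SE 0.17, adjusted p = 2.3e-05). Its middle arrays (389 to 452) lay with the apex, whereas those of Epyc (21500 to 23700) lay between the ends (33700 to 42500 and 10800 to 11600).

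Matrix glycoproteins were called in the apical direction alone, 5 of 30 (16.7%) with a median of 0.11. Emilin2, which is also counted in the supporting cell list, is among the 5. Tnc, tenascin C, read 56.4, 78.9, 69.3 and 118 on the apical arrays and 12.2, 10.4, 15.6 and 13.5 on the basal arrays (log2 difference 2.6, SE 0.19, adjusted p = 3.4e-06), and its middle arrays (14.9 to 15.5) were at the level of the base. Fn1, fibronectin, read 677, 708, 555 and 549 on the apical arrays and 157, 168, 165 and 176 on the basal arrays (log2 difference 1.9, SE 0.1, adjusted p = 4.7e-07), and all 46 of its probes were higher in the apical turn. Fbn2, the microfibril protein fibrillin 2, differed by 1.15 ± 0.091 (SE, adjusted p = 6e-06). Basal array 3 was the highest basal array in 1 of the 5 called genes of this list, against 16 of 16 of the neuronal list, and the median place of the middle turn on the way from base to apex was 30.7% against 92.6%.

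Collagens, with 39 genes measured, gave 1 call, Col23a1, a transmembrane collagen (log2 difference 1.15, SE 0.066, adjusted p = 6.9e-07). Laminins, nidogens and integrins gave 1 of 44, Lamb1, a laminin chain of basement membranes, with 583, 598, 608 and 586 on the apical arrays and 286, 263, 343 and 297 on the basal arrays (log2 difference 1.01, SE 0.073, adjusted p = 3.4e-06). Without apical array 3, basal array 1 or basal array 2, Lamb1 was just under the limit, at 0.99, 0.99 and 0.95. Matrix proteases and their inhibitors gave 6 of 74 (8.11%) in the apical direction and none in the other, and basal array 3 was the highest basal array in all 6. Mmp16, a membrane-bound metalloprotease, read 53.6, 41, 46.8 and 38 on the apical arrays and 12.2, 11.2, 14.9 and 13.8 on the basal arrays (log2 difference 1.78, SE 0.12, adjusted p = 1.6e-06). Adam23 and Adam22, membrane proteins of synapses without protease activity, differed by 1.5 ± 0.36 and 1.37 ± 0.26 (SE).

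**Figure D4:**
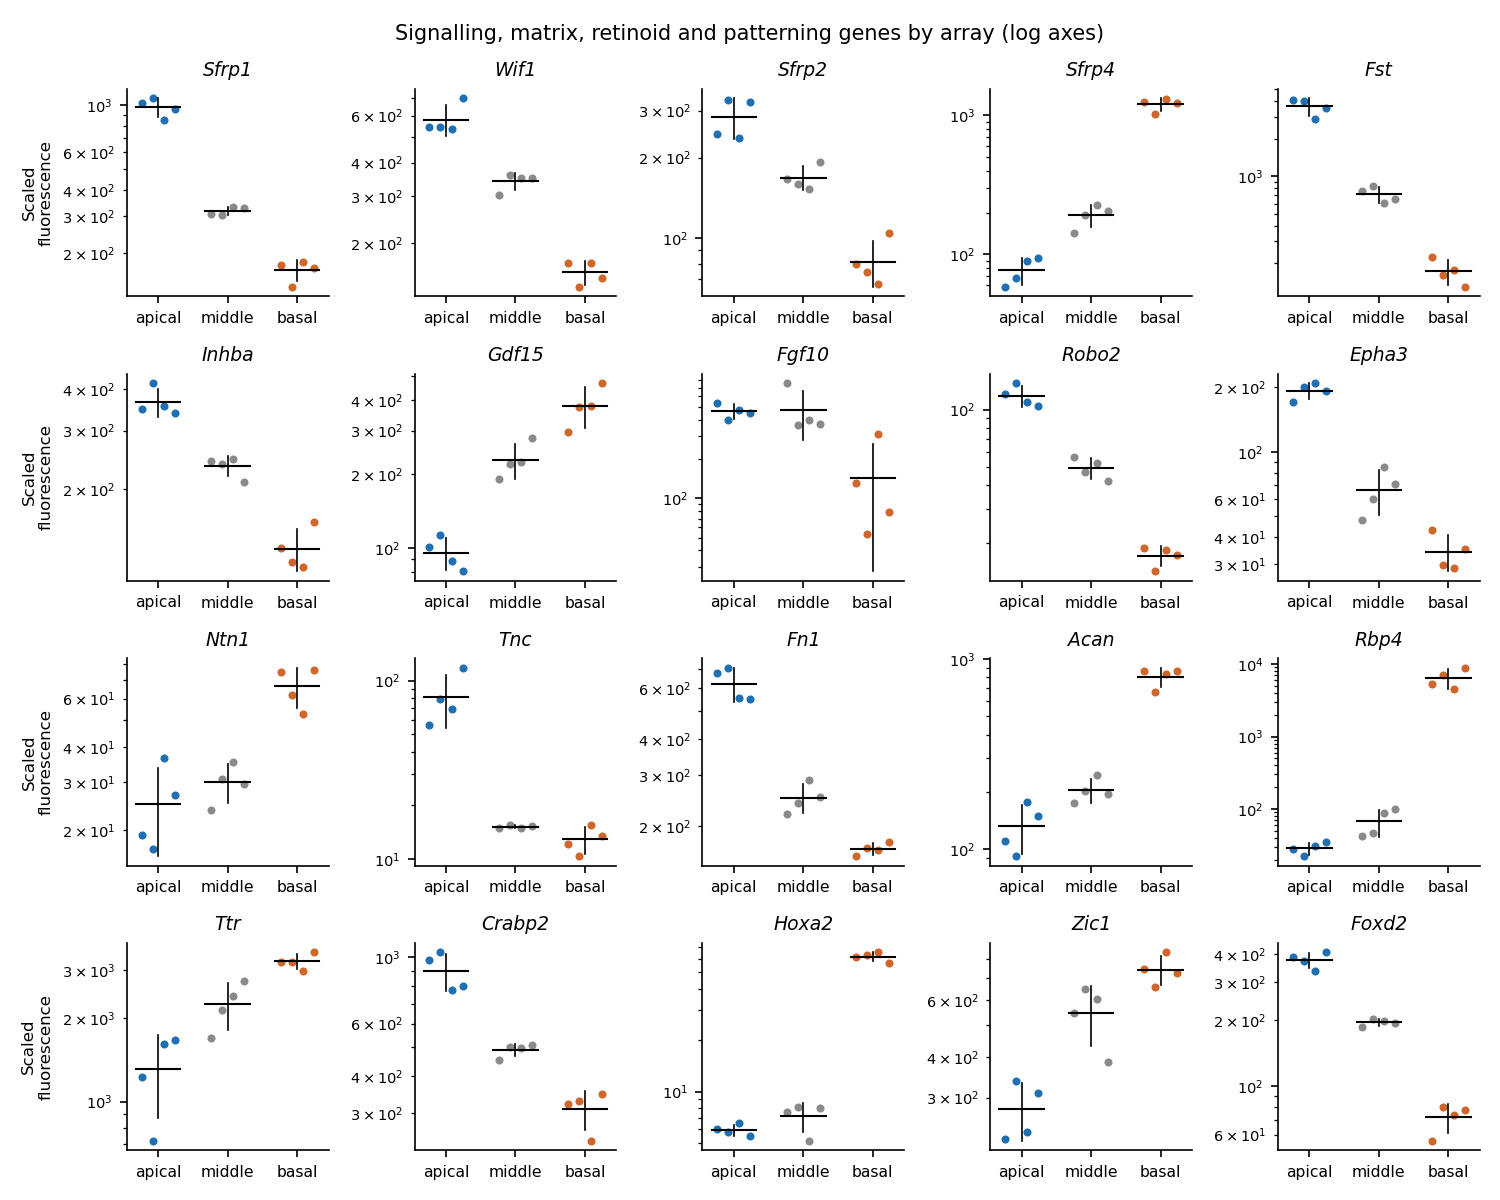
Scaled fluorescence (log axes) of 20 signalling, matrix, retinoid and patterning genes on each array. Points are arrays, horizontal lines are means and vertical lines are SD (n = 4 arrays per turn). Sfrp1, Wif1, Sfrp2 and Fst fall from apex to base, Sfrp4, Gdf15, Acan and Rbp4 rise, and Tnc has its middle arrays (14.9 to 15.5) near the base.

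Secreted inhibitors of Wnt signalling were placed at both ends. Wnt proteins act through Frizzled receptors, and the Sfrp proteins and Wif1 bind Wnt outside the cell. In the list of Wnt ligands, receptors and secreted inhibitors, 6 of 53 (11.3%) were higher in the apical turn and 1 (1.89%) in the basal turn, with a median of 0.03. Sfrp1 read 1030, 1080, 854 and 965 on the apical arrays and 176, 139, 182 and 171 on the basal arrays (log2 difference 2.56, SE 0.095, adjusted p = 4.5e-08). Wif1 read 544, 546, 534 and 696 on the apical arrays and 169, 137, 169 and 148 on the basal arrays (log2 difference 1.89, SE 0.1, adjusted p = 5e-07). Neither overlapped, which for Sfrp1 was a condition of its choice. The middle arrays of both (304 to 330 and 303 to 359) lay between. Sfrp2 read 245, 329, 237 and 324 on the apical arrays and 79.7, 74.8, 67.4 and 104 on the basal arrays (log2 difference 1.8, SE 0.15, adjusted p = 7.9e-06), but only 2 of its 3 probes were higher in the apical turn and the mean linear signal gave 0.11. Sfrp4 was the call at the base, at 58.5 to 94.7 in the apical and 1030 to 1310 in the basal turn. Among the receptors, Fzd10 read 2070, 1800, 1800 and 1930 on the apical arrays and 670, 482, 684 and 770 on the basal arrays (log2 difference 1.56, SE 0.12, adjusted p = 5.7e-06), on 1 probe.

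Activin and BMP signals are held in check by secreted antagonists such as follistatin. Of 62 genes of the BMP, activin and TGF-beta pathways, 3 (4.84%) were higher in the apical turn and 1 (1.61%) in the basal turn, and the median was 0.07. Fst, follistatin, read 4120, 4010, 2850 and 3530 on the apical arrays and 226, 161, 175 and 129 on the basal arrays. Inhba, the activin subunit that Fst binds, was also higher in the apical turn, with 348, 417, 355 and 340 on the apical arrays and 133, 121, 117 and 160 on the basal arrays (log2 difference 1.47, SE 0.1, adjusted p = 2.7e-06). Gdf6, a BMP family ligand, differed by 1.35 ± 0.28 (SE, adjusted p = 0.003). Gdf15, a stress-induced ligand of the same family, was higher in the basal turn, with 101, 113, 88.6 and 80.1 on the apical arrays and 295, 375, 377 and 468 on the basal arrays (log2 difference -1.98, SE 0.16, adjusted p = 6e-06). In none of the 3 genes called at the apex was basal array 3 the highest basal array.

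The calls among FGF genes, 2 of 29 (6.9%) and both apical, were Fgf10 and Fgf12. Fgf10, a secreted ligand of the developing and adult ear, read 537, 399, 476 and 447 on the apical arrays and 131, 53.2, 310 and 79 on the basal arrays (log2 difference 2.01, SE 0.45, adjusted p = 0.0044). Fgf12, a factor that stays inside neurons, read 624, 431, 631 and 479 on the apical arrays and 166, 98.5, 333 and 121 on the basal arrays (log2 difference 1.74, SE 0.33, adjusted p = 0.0017). Basal array 3 was the highest basal array in both, and their middle arrays reached the apical range. None of 25 Notch pathway genes was called in either direction. The largest among them were Jag1, a Notch ligand of supporting cells, at 0.99 ± 0.072 (SE, adjusted p = 3.3e-06), and Hey1, a target gene, at 0.95 ± 0.13 (SE, adjusted p = 0.00023), and with apical array 4 left out 2 were called in the apical direction.

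Molecules that guide axons had 6 of 70 members (8.57%) called higher in the apical turn and 1 (1.43%) in the basal turn, with a median of 0.26. Robo2, a receptor for Slit proteins, read 121, 138, 110 and 104 on the apical arrays and 18.7, 14.1, 18.2 and 17.2 on the basal arrays (log2 difference 2.79, SE 0.12, adjusted p = 1.2e-07), with all 27 probes higher in the apical turn. Epha3, an ephrin receptor, read 170, 199, 208 and 192 on the apical arrays and 43.2, 29.9, 28.8 and 35.5 on the basal arrays (log2 difference 2.5, SE 0.17, adjusted p = 2.2e-06). Ntn1, the ligand netrin 1, read 19.3, 17.1, 36.6 and 26.8 on the apical arrays and 75, 61.8, 52.9 and 76.2 on the basal arrays (log2 difference -1.46, SE 0.22, adjusted p = 0.00046). The ends were apart in all 3 genes, which for Robo2 and Epha3 was a condition of their choice. Basal array 3 was the highest basal array in 3 of the 6 genes called at the apex.

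Among the families, the synaptic ones held the largest shares of calls. Of 59 genes of synaptic vesicles and release, 22 (37.3%) were higher in the apical turn and 3 (5.08%) in the basal turn, with a median of 0.66. Syt1, the calcium sensor of vesicle release, read 146, 157, 145 and 150 on the apical arrays and 27, 23.6, 39.1 and 22 on the basal arrays (log2 difference 2.45, SE 0.17, adjusted p = 1.9e-06). Cplx1, complexin, a clamp of the release machinery, read 4200, 3450, 4150 and 3860 on the apical arrays and 1200, 559, 3000 and 992 on the basal arrays (log2 difference 1.71, SE 0.4, adjusted p = 0.0056). Rab3c and Stxbp5l, both of vesicle traffic, differed by 1.94 ± 0.35 and 1.9 ± 0.25 (SE), Rab3c being well above background on 3 of 4 basal arrays. In all 22 genes basal array 3 was the highest basal array. Of the calls at the base, Syt13, a synaptotagmin that does not bind calcium, read 22.1, 21.4, 25.3 and 23.7 on the apical arrays and 114, 118, 71.3 and 110 on the basal arrays (log2 difference -2.14, SE 0.15, adjusted p = 3.3e-06), and its basal array 3 was the lowest of its turn. Syt12 and Syt10 lay near the limit at -1.05 ± 0.11 and -1.1 ± 0.21 (SE). Without basal array 4 both were at -0.97, and Syt12 was at -0.97 without apical array 2 and Syt10 at -0.94 without basal array 1.

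Synaptic and neuronal adhesion molecules had 18 of 49 members (36.7%) called higher in the apical turn, none in the basal turn, and a median of 0.71. Opcml, a GPI-anchored adhesion molecule, read 133, 101, 115 and 109 on the apical arrays and 25.8, 32.1, 36.9 and 19.6 on the basal arrays (log2 difference 2.03, SE 0.19, adjusted p = 1.5e-05). Slitrk6, which guides innervation of the inner ear, read 255, 313, 238 and 226 on the apical arrays and 67.5, 42.6, 74.3 and 79.7 on the basal arrays (log2 difference 1.99, SE 0.19, adjusted p = 2e-05). For 16 of the 18 called members basal array 3 was the highest of its turn, and 12 were called without basal array 2 and 3 with normexp. Lingo1, a membrane protein of neurons, was not well above background on the basal arrays (16.2, 5.56, 25 and 6.34) and was at least 1.82-fold higher in the apical turn (64, 30.9, 55.5 and 54.4). Here a dim gene's bound compares the mean of the bright turn with the dimmest signals that count as well above background, or with the gene's own signal where that was higher.

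Among subunits of glutamate, GABA, glycine and acetylcholine receptors, 13 of 73 (17.8%) were higher in the apical turn and none in the basal turn, with a median of 0.04. Besides the 2 hair cell subunits they held Gria2, of AMPA receptors, with 74.8, 57.5, 77.3 and 48.5 on the apical arrays and 24.6, 8.86, 42.1 and 17.5 on the basal arrays (log2 difference 1.66, SE 0.41, adjusted p = 0.0073). Neuropeptides and granins had 7 of 41 (17.1%) in the apical direction and none in the other. Scg2, secretogranin II, read 200, 195, 171 and 227 on the apical arrays and 40.1, 33.3, 49.7 and 58.8 on the basal arrays (log2 difference 2.15, SE 0.16, adjusted p = 3.5e-06) on 1 probe, and its basal arrays stayed together. Chgb, chromogranin B, read 3850, 3060, 3380 and 3430 on the apical arrays and 1450, 867, 2620 and 1090 on the basal arrays (log2 difference 1.31, SE 0.29, adjusted p = 0.0044), with basal array 3 the highest of its turn. Cadherins and protocadherins had 8 of 92 (8.7%) in the apical direction and none in the other, among them Cdh6, with 193, 201, 200 and 169 on the apical arrays and 57.8, 43.1, 54.3 and 61.8 on the basal arrays (log2 difference 1.82, SE 0.12, adjusted p = 1.5e-06), and Pcdh17, with 278, 357, 297 and 280 on the apical arrays and 102, 89.5, 82.3 and 94.2 on the basal arrays (log2 difference 1.72, SE 0.099, adjusted p = 7.5e-07).

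Few genes that set position in the embryo were called, and their shares are to be read beside the 3.32% (apex) and 1.15% (base) of all genes. Hox genes, which mark the hindbrain and trunk, gave 1 call of 39 (2.56%), at the base. Hoxa2 was not well above background on any apical array (6, 5.76, 6.55 and 5.5), read 61.4, 62.7, 65.3 and 56.4 on the basal arrays, and was at least 2.33-fold higher there (adjusted p = 6e-08). Its middle arrays (5.15 to 8.1) were as dim as the apical ones. Of 179 other patterning transcription factors, 5 (2.79%) were higher at each end, with a median of -0.02. Foxd2, a forkhead factor, read 390, 372, 335 and 409 on the apical arrays and 56.3, 80.1, 73.9 and 77.9 on the basal arrays (log2 difference 2.4, SE 0.11, adjusted p = 1.2e-07). Zic1, a zinc finger factor, was the largest of the basal calls, with 224 to 338 on the apical and 656 to 840 on the basal arrays (log2 difference -1.44, SE 0.17, adjusted p = 0.00011), and its probes differed in size, since the median over probes gave -0.5. Foxc2, a factor of mesenchyme, read 965, 910, 752 and 973 on the apical arrays and 1900, 1980, 1660 and 1860 on the basal arrays (log2 difference -1.04, SE 0.1, adjusted p = 2.2e-05), and -0.96 without apical array 3.

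**Figure D5:**
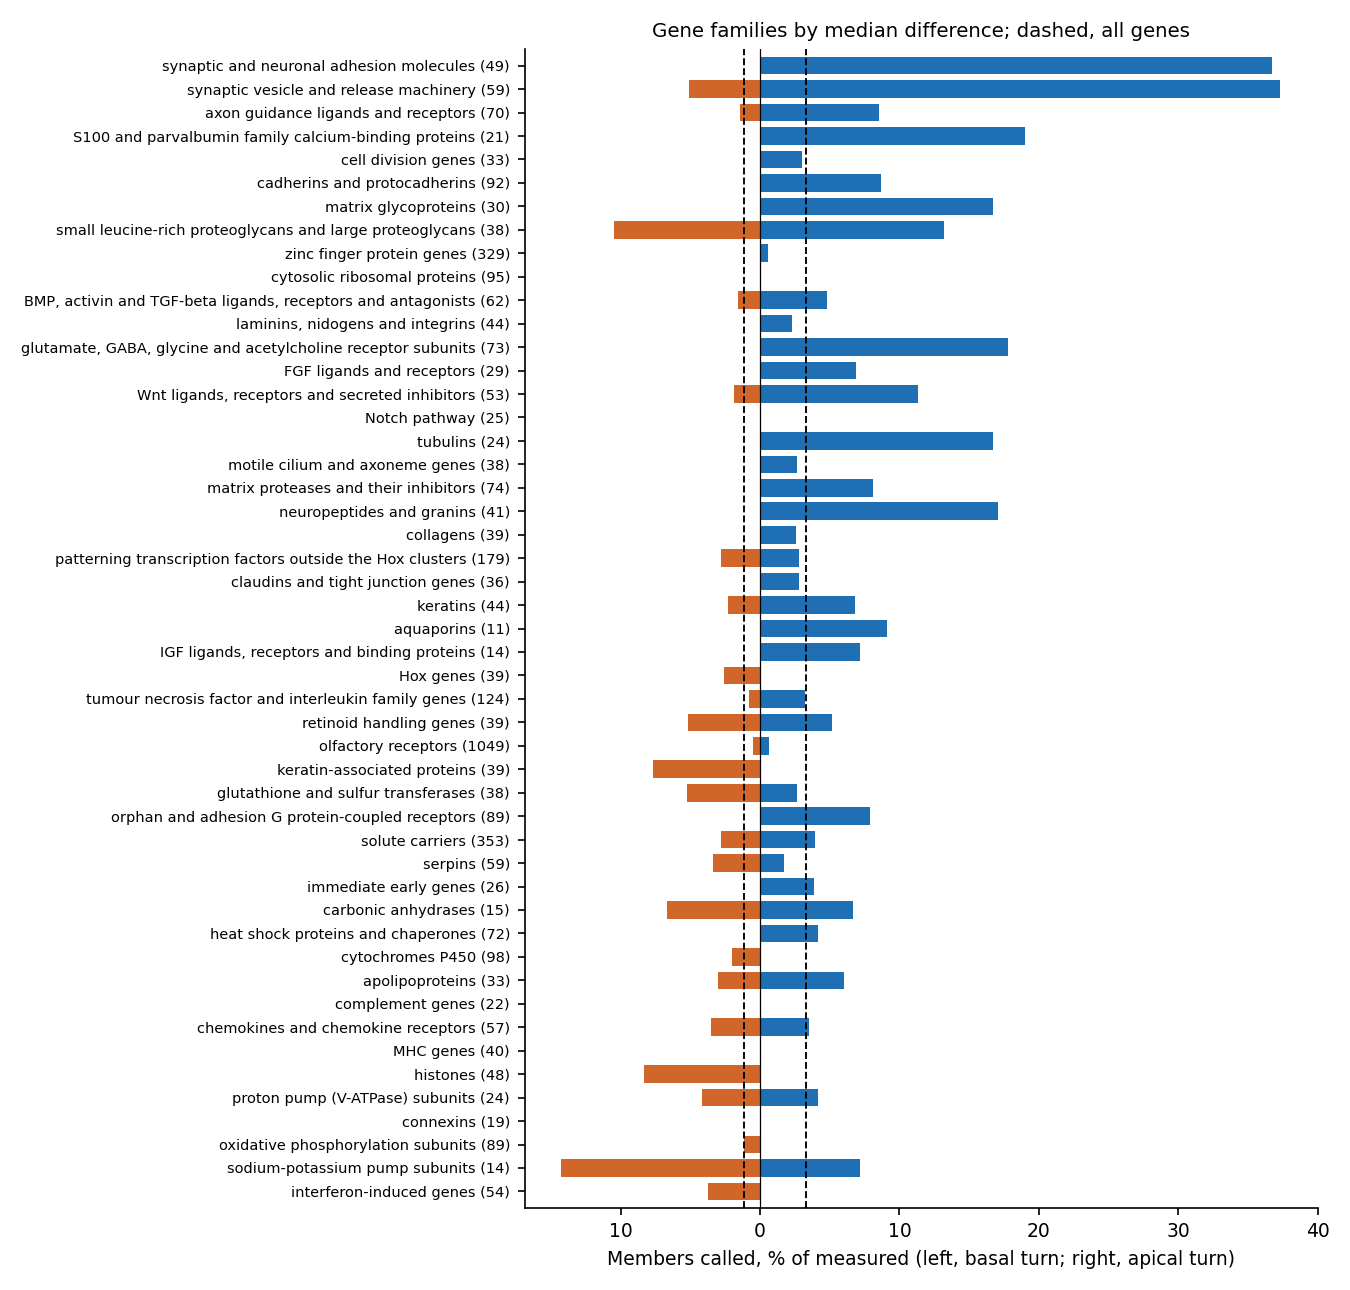
Share of the measured members of each gene family that passed the test, in % (basal turn to the left in orange, apical turn to the right in blue), ordered by median difference, with the number measured in brackets. The dashed lines mark the shares over all genes, 3.32% and 1.15%. Synaptic vesicle (37.3%) and neuronal adhesion (36.7%) genes reach farthest to the right, and interferon-induced genes have the lowest median (-0.38).

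Of 14 sodium-potassium pump subunits, 2 (14.3%) were higher in the basal turn and 1 (7.14%) in the apical turn, with a median of -0.34. Fxyd6, a regulator of the pump, read 4750, 4630, 4370 and 4630 on the apical arrays and 10100, 10500, 9000 and 10500 on the basal arrays (log2 difference -1.12, SE 0.056, adjusted p = 2.9e-07). Atp1b3, a beta subunit, read 6930, 7200, 6600 and 8320 on the apical arrays and 15300, 15400, 14100 and 16000 on the basal arrays (log2 difference -1.07, SE 0.085, adjusted p = 5.7e-06). In both the basal arrays were close together and apart from the apical ones, and quantile normalisation brought them to -0.88 and -0.83.

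The proton pump, or V-ATPase, had 19 of 24 subunits below 0 and a median of -0.29, with 1 call at each end. Atp6v1g3, a subunit of intercalated-type cells, was the call at the base, at 11.7 to 14.7 in the apical turn, where 2 of 4 arrays were well above background, and 175 to 240 in the basal turn. The call at the apex was Atp6v1g2, the neuronal form of the same subunit, with 825, 688, 860 and 769 on the apical arrays and 330, 200, 727 and 264 on the basal arrays (log2 difference 1.22, SE 0.33, adjusted p = 0.012). Its groups overlapped at basal array 3, and without basal array 2 its difference was 0.97.

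Solute carriers, the largest transporter family, had 14 of 353 (3.97%) higher in the apical turn and 10 (2.83%) in the basal turn, against 3.32% and 1.15% of all genes. Slc22a2, an organic cation transporter, read 35, 33.2, 39.8 and 35.9 on the apical arrays and 186, 180, 148 and 213 on the basal arrays (log2 difference -2.33, SE 0.12, adjusted p = 2.9e-07). Slc4a10, a sodium bicarbonate transporter, read 1240, 1530, 1500 and 1530 on the apical arrays and 5370, 5430, 4100 and 5500 on the basal arrays (log2 difference -1.81, SE 0.12, adjusted p = 2.3e-06), with all 24 probes higher in the basal turn. Slco1b2, an organic anion transporter, read 9.49, 9.7, 9.72 and 9.9 on the apical arrays and 43.1, 38.4, 23.8 and 51.9 on the basal arrays (log2 difference -1.96, SE 0.19, adjusted p = 1.9e-05). None of these 3 overlapped, which for Slc22a2 was a condition of its choice. At the apex, Slco5a1, of the same transporter family, and Slc2a3, a glucose transporter of neurons, differed by 1.85 ± 0.31 and 1.68 ± 0.29 (SE). Basal array 3 was the highest basal array for 12 of the 14 carriers called at the apex. None of 19 connexins was called in either direction, and Gjb6, a main gap junction protein of the cochlea, read 90700, 87900, 81400 and 90000 on the apical arrays and 145000, 162000, 135000 and 156000 on the basal arrays, a difference of -0.77 ± 0.078 (SE) that is under 2-fold.

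Carriers of retinoids and lipids held some of the largest single differences, in opposite directions. Of 39 retinoid handling genes, 2 (5.13%) were called at each end, with a median of -0.05. Rbp4, which carries retinol in blood, was the most extreme gene of the comparison. Ttr, transthyretin, its partner in blood, was higher in the basal turn too, with 1230, 722, 1610 and 1670 on the apical arrays and 3210, 3210, 2970 and 3470 on the basal arrays (log2 difference -1.37, SE 0.24, adjusted p = 0.00096). Crabp2, which carries retinoic acid inside the cell, was higher in the apical turn, with 979, 1040, 775 and 803 on the apical arrays and 322, 330, 243 and 349 on the basal arrays (log2 difference 1.53, SE 0.12, adjusted p = 6.6e-06). Aldh1a3, an enzyme that makes retinoic acid, differed by 1.49 ± 0.38 (SE, adjusted p = 0.0087), with 336, 164, 720 and 250 on the basal arrays, so that array 3 was well above the others.

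Among 33 apolipoproteins, Apoa4 and Apoc3 were higher in the apical turn and Apof in the basal turn. Apoc3 read 420, 498, 409 and 460 on the apical arrays and 89.9, 82, 84.8 and 91.6 on the basal arrays (log2 difference 2.36, SE 0.074, adjusted p = 1.6e-08), with 2 of 3 probes higher there, and the mean linear signal gave 0.41. Apof read 93.5, 53.5, 71 and 119 on the apical arrays and 692, 2040, 562 and 515 on the basal arrays (log2 difference -3.31, SE 0.53, adjusted p = 0.00058) on 1 probe, with basal array 2 far above the others. Of the sulfotransferases, Sult4a1, a form of neurons, was at 1.24 ± 0.25 (SE) and Sult5a1 at -3.56 ± 0.17 (SE).

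Some classes had most members below 0 while few were called. Of 89 subunits of oxidative phosphorylation, 82 were below 0 and the median was -0.32. Only Cox7a1, a subunit of cytochrome oxidase in muscle-type tissue, was called, with 3240, 3110, 2820 and 3470 on the apical arrays and 10300, 10300, 9170 and 11500 on the basal arrays (log2 difference -1.71, SE 0.096, adjusted p = 6e-07). The list medians per array ran from -0.26 to -0.11 on the apical and from 0.07 to 0.21 on the basal arrays, without overlap. Cytosolic ribosomal protein genes, by contrast, had 70 of 95 above 0, a median of 0.07 and no call in either direction. Histones gave 4 of 48 (8.33%) at the base and none at the apex, with a median of -0.25. They were Hist1h1d, Hist1h1c, Hist1h3a and Hist1h4i, members of a family with near-identical copies, so that their probes may not be specific. Hist1h1c, a linker histone, read 1650, 2330, 2110 and 2640 on the apical arrays and 4360, 6870, 5530 and 7210 on the basal arrays (log2 difference -1.45, SE 0.21, adjusted p = 0.00034) on 1 probe, and Hist1h1d was not well above background on the apical arrays and at least 1.1-fold higher at the base. Hist1h3a was not well above background on any array of either turn.

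Interferon-induced genes had the lowest median of the families, -0.38, with 48 of 54 below 0. Their median per array was -0.35, -0.41, -0.29 and 0.41 on the apical arrays and 0.13, 0.82, 0.26 and -0.23 on the basal arrays, so the turns overlapped. The 2 calls (3.7%), both at the base, were Ifi27l1, with 11700, 9570, 11700 and 11900 on the apical arrays and 23300, 36600, 20400 and 26500 on the basal arrays (log2 difference -1.22, SE 0.16, adjusted p = 0.00017), and Ifi27l2a, with 11800, 9850, 8400 and 10700 on the apical arrays and 21500, 68600, 15400 and 16500 on the basal arrays (log2 difference -1.29, SE 0.39, adjusted p = 0.02). Basal array 2 decided the latter, which was at -0.8 without it, and without apical array 3 its adjusted p was 0.054. Without apical array 4 or without basal array 4, 6 interferon-induced genes were called higher in the basal turn. Cxcl10, a chemokine that interferon induces, was called at the base (log2 difference -2.74, SE 0.96, adjusted p = 0.041) although its turns overlapped. It read 96.1, 82.6, 99.9 and 629 on the apical arrays and 633, 4170, 2430 and 154 on the basal arrays, and without basal array 2 its adjusted p was 0.12, with 0.054 to 0.12 over the 6 arrays whose removal ended the call. None of 40 MHC genes and none of 22 complement genes was called in either direction.

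The remaining families are given by their counts. Keratins gave 3 of 44 (6.82%) at the apex and 1 (2.27%) at the base, and keratin-associated proteins 3 of 39 at the base. The largest of the latter, Krtap17-1, was not well above background on the apical arrays and at least 3.16-fold higher at the base. Tubulins gave 4 of 24 (16.7%) at the apex, the largest being Tubb2b, a tubulin of neurons, with 356, 377, 383 and 322 on the apical arrays and 79.6, 66.3, 78.1 and 75.3 on the basal arrays (log2 difference 2.27, SE 0.082, adjusted p = 4.1e-08), and 1 of 24 was called without basal array 2. The S100 and parvalbumin family gave 4 of 21 (19%) at the apex, among them Calb2, calretinin (log2 difference 1.72, SE 0.39, adjusted p = 0.0046), and Pvalb, parvalbumin (log2 difference 1.29, SE 0.34, adjusted p = 0.012), which was at 0.98 without basal array 2.

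Orphan and adhesion G protein-coupled receptors gave 7 of 89 (7.87%) at the apex. Chemokines and their receptors gave 2 of 57 (3.51%) at each end, with Cxcl13, a chemokine of B cells, at 2.35 ± 0.2 (SE) at the apex. Tumour necrosis factor and interleukin family genes gave 4 of 124 (3.23%) and 1, and serpins 1 of 59 and 2. Heat shock proteins gave 3 of 72 (4.17%) at the apex, zinc finger genes 2 of 329 and cell division genes 1 of 33. In the cell division list the median over genes was 0.54 above their means on apical array 4. Immediate early genes, claudins, aquaporins, IGF genes and motile cilium genes gave 1 call each at the apex, out of 26, 36, 11, 14 and 38. The IGF call was H19, a non-coding RNA imprinted beside Igf2, at 1.91 ± 0.32 (SE), the claudin call Cldn10, at 1.12 ± 0.099 (SE), and the cilium call Tekt1, at 2.07 ± 0.12 (SE). Carbonic anhydrases gave 1 of 15 at each end (Car10 and Car2), glutathione and sulfur transferases 1 of 38 and 2, and cytochromes P450 2 of 98 at the base. Olfactory receptors, of which 119 of 1049 were above background, gave 7 and 5 calls, and the 7 became 4 without basal array 2.

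The arrays of the middle turn, which entered the calls only through the estimate of the spread, placed these genes along the cochlea. The mean of the middle arrays lay between those of the ends for 756 of the 872 called genes. On a log2 scale with 0% at the mean of the base and 100% at the mean of the apex, the middle turn stood at a median of 83.8% for the genes called at the apex, and above 75% for 394 and below 25% for 31 of them. For the genes called at the base the median was 67.6%, with 76 above 75% and 9 below 25%. Among the genes called at the apex, the median place was 92.6% in the neuron list, 73.9% in the hair cell list, 54.3% in the outer sulcus list and 49.2% in the Wnt list.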

How the data were processed

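Total RNA of the 3 cochlear turns was labelled with Cy3 and hybridised to Agilent SurePrint G3 Mouse Exon arrays, 4 per turn, each with 1 colour. The authors scanned the arrays and extracted the spots with Agilent Feature Extraction 10.7.3.1, and the deposited files give the background-corrected signal of each spot as an intensity. The deposited value table gives the same intensity values spot for spot. The study's methods describe scaling to the 75th percentile, a gene value as the mean of its exon probes, a one-way analysis of variance and a 2-fold limit.

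Of 172966 probe spots, 165984 probes were formed by averaging repeated spots, and 119 probes flagged as outliers on any array were left out. Each array's intensity was divided by its 75th percentile and multiplied by 640.8 for printing, log2 was taken, and probes sharing a gene name were averaged. Genes with no probe above background were kept. The contrast was tested over 19505 genes with limma 3.58.1 in R 4.3.3 on all 12 arrays in 3 groups, with Benjamini-Hochberg adjustment, and a call needed an adjusted p under 0.05 and a 2-fold difference of means. The number of arrays limits the precision. No covariate was used, since each turn lay on a slide of its own. The scripts were tested on simulated data.

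The genes at each end, and up to 4 called members per direction of each of 65 lists (16 marker lists and 49 families), were named by rule, with up to 2 members by value where none was called, and defining markers of each tissue were named whatever their value. Results on a few genes that the rule names are not reported here. Members and lists were chosen with earlier results of these data known. Promoter sequences came from RefSeq (GRCm38.p6). Alternatives covered the scaling, background correction, probe summary, filters, test, added constant, a replicate block and the removal of each array. Positions of probes entered no test and served to compare later with earlier probes within a gene. Arrays of the middle turn were described only by place.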

Additional observations from a re-analysis of the deposited data

Results flagged for a closer look

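An array was singled out where its gap to the nearest array of its turn took up most of the range of the 4, by Dixon's limit, which chance passes in about 1 of 20 groups. Of 338 groups of named genes 20 passed, and of 130 groups of list medians 13.

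Apical array 4 was the highest of its turn for Krt23 (161, others 130 to 132), Fgl2 (56.7, others 18.4 to 20.2), Wif1 (696, others 534 to 546) and Cxcl10 (629, others 82.6 to 99.9). Apical array 3 was the highest for Gfap (416, others 22 to 27.6) and Olig1 (266, others 5.36 to 7.06). Apical array 2 was the lowest for Crtac1 (94.8, others 139 to 148), Ninj2 (50.4, others 77.3 to 78.3) and Ifi27l1 (9570, others 11700 to 11900). Apical array 1 was the lowest for Mlana (1960, others 2450 to 2500) and Slc4a10 (1240, others 1500 to 1530).

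In the basal turn, array 4 was the highest for Emilin2 (406, others 292 to 304), Ninj2 (522, others 386 to 405) and Acta2 (2030, others 1860 to 1880). Basal array 3 was the highest for Crtac1 (37.9, others 20.1 to 22.1) and the lowest for Syt13 (71.3, others 110 to 118) and Slc4a10 (4100, others 5370 to 5500). Basal array 2 was the highest for Csf1r (400, others 338 to 347) and Olig1 (12.1, others 5.8 to 6.14) and the lowest for Acan (667, others 833 to 863).

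Among the list medians, given as log2 deviations from the genes' own means, apical array 4 stood apart for interferon-induced genes (0.41, others -0.41 to -0.29), marginal cells (-0.18, others -0.23) and zinc finger genes (0, others 0.06). Apical array 1 stood apart for Schwann cells (0.29, others 0.16 to 0.18) and melanocytes (-0.5, others -0.33 to -0.32), and apical array 2 for claudins (0.06, others -0.02 to -0.01). Apical array 3 stood apart for cadherins (0.29, others 0.04 to 0.07) and ribosomal proteins (-0.12, others 0.07 to 0.1). Basal array 4 stood apart for neuropeptides and granins (0.02, others -0.11 to -0.1), keratins (0.07, others -0.09 to -0.07) and immediate early genes (0.08, others -0.09 to -0.08). Basal array 2 stood apart for receptor subunits (-0.21, others -0.08 to -0.06) and basal array 3 for complement genes (-0.08, others 0.04 to 0.06).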

How the results depend on the processing

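The 648 and 224 calls at the apex and at the base became 260 and 932 with spike-in scaling, 203 and 110 with normexp on the mean signal, and 3436 and 4209 with no fold limit. Adding 16 before the log left 422 at the apex and 152 at the base. Quantile normalisation gave 519 and 268 (65.9% at the apex), median scaling 525 and 332, the mean linear probe signal 533 and 242, and the median over probes 742 and 268. The methods' analysis of variance at the same limits gave 625 and 208. Leaving out 1 array gave from 517 (without basal array 2) to 765 (without basal array 3) calls at the apex and from 211 (without basal array 4) to 266 (without apical array 4) at the base. Leaving out both apical array 4 and basal array 3, an alternative chosen after seeing the data, gave 807 and 304. The cause of these differences was not tested. With the replicate number as a block the counts were 646 and 222. Same-numbered apical and basal arrays deviated together with correlations of 0.14, 0.04, 0.04 and -0.04, so the numbers were not taken as a pairing.

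Of 136 named genes that were called, 75 were called the same way in all 27 settings and none turned direction. With normexp 45 of them were under a limit, with spike-in scaling 22, with quantile normalisation 15, with the mean linear signal 16 and with 16 added 14. Relative to all genes, the medians of 20 of 65 lists changed sign in 1 or more settings, 18 of them from a value within 0.1 of 0. The other 2 were connexins, at -0.26 and 0.12 over genes with 2 or more probes, and bone, at 0.16, -0.21 without apical array 4 and -0.02 without apical array 4 and basal array 3. Counts of calls in single lists stayed within 1.5 times in 1197 of 1365 comparisons at the apex and 1158 of 1365 at the base. Among dim genes, 40 called at the apex were not above background in the base and 19 called at the base were not above background in the apex, so that their folds are bounds.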
